A study of Mus musculus with 8 samples.

Results

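H3K4me3 was compared between menin-null and wt pancreatic islet-like endocrine cells (PILECs), outside the 4 Hox loci. The 4 libraries used, an H3K4me3 ChIP-Seq library and an input library of each genotype, were taken by their titles from the 8 libraries of the series, which also holds the parent mESCs. The wt PILECs came from TC-1 mESCs and the menin-null PILECs (Men1-KO) from 3.2N mESCs, both of strain 129S6/SvEvTac, by differentiation in culture. Each genotype was thus represented by 1 mESC line, 1 ChIP library and 1 input library of PILECs, and a difference has no replicate check. Of 13107 regions of PILECs enriched for H3K4me3, 13075 lay outside the Hox loci, and of 26212 annotated genes 20348 outside these loci had enough promoter tags to be compared.

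H3K4me3 is the trimethyl mark at lysine 4 of histone H3 that is found at the start sites of active and poised genes. It is set by SET1 and MLL family complexes, and menin, the product of Men1, is a subunit of the MLL1 and MLL2 complexes. Menin is best known at the Hox genes, and its loss in people gives tumors of pancreatic islets and other endocrine glands. The Hox loci themselves, with 25 of their 32 regions lost in the menin-null library, serve here only as a scale.

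The windows shown are stretches of 200 bp with the most H3K4me3 tags in 5 regions on which the results turn, leaving out annotated exons. They are given on the plus strand of mm9 with each CpG in capitals. The 3 lost windows held 1, 3 and 10 CpGs and the 2 gained windows 4 and 11.
Cdon, lost, chr9:35232601-35232800: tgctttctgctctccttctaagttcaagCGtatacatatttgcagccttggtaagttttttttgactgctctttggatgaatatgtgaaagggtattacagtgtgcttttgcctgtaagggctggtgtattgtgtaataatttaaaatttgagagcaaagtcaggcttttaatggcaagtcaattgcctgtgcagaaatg
Before miR-99a and let-7c-1, lost, chr16:77595601-77595800: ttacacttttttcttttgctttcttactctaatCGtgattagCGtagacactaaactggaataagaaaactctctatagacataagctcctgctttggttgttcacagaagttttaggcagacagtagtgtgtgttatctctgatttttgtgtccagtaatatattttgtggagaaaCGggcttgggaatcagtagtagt
Trappc9 intron, lost, chr15:72639801-72640000: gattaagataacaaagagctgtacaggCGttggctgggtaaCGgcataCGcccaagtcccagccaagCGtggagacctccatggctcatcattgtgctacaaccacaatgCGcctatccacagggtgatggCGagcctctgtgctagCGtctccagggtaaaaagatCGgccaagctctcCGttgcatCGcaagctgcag
Aox4, gained, chr1:58272801-58273000: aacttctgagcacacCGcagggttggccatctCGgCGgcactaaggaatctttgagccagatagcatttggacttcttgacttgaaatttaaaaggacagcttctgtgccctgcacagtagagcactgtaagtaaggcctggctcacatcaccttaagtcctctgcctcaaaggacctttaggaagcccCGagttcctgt
9030622O22Rik, gained, chr2:147865401-147865600: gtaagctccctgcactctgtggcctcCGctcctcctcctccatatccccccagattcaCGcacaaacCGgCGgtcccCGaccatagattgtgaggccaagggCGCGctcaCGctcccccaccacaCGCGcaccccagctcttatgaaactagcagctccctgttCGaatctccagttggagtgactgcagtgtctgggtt
In the order shown, the windows held 26, 21, 58, 3 and 4 wt tags and 2, 3, 13, 17 and 21 menin-null tags. Their inputs held 0 to 5 tags in either genotype. The mature miRNAs of the loci described below are given from RefSeq (GRCm38.p6) with the seed, bases 2 to 8, in capitals, because several share a seed across loci.
miR-99a-5p: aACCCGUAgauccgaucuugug
miR-100-5p: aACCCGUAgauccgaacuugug
let-7c-5p: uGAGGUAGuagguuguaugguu
let-7a-5p: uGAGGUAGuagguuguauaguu
miR-125b-5p: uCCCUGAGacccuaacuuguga
miR-17-5p: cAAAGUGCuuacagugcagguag
The lines for miR-99a-5p and miR-100-5p share the seed ACCCGUA, and those for let-7c-5p and let-7a-5p share GAGGUAG.

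Tags were counted at the middle of the sonicated fragment, 125 bp inward of the read start, and given as RPM, the tags per 1000000 tags of the library. Ratios are log2 of menin-null over wt RPM after adding 1 tag to each count, so a negative value is a lower level in menin-null PILECs, and intervals are 95% exact binomial intervals. A region or promoter was called lost or gained when it differed 2-fold or more with an adjusted p of 0.05 or less in an exact binomial test of the tags of the 2 libraries. Such a test compares these libraries and covers counting error, not the spread between cultures. The H3K4me3 libraries held 17682677 menin-null and 18773635 wt tags, of which 42.5% and 45.6% fell in enriched regions. Scaling by the tags within regions in place of all tags therefore raises every log2 ratio by 0.10.

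The labels held for Men1. Between exons 3 and 8 of the 10 exons of Men1 (mm9 chr19:6336725-6338961) the menin-null H3K4me3 library had 0 tags and the wt library 24, and the inputs had 0 and 22. The Men1 promoter, outside that stretch, had 783 menin-null and 867 wt tags, a log2 ratio of -0.06. Promoters of neuronal markers carried the mark in both genotypes, with Tubb3, Syn1, Stmn2 and Elavl3 summing to 109.6 RPM in menin-null and 110.2 RPM in wt PILECs. Of 16 islet markers 8 lay in enriched regions, including Pax6, Isl1 and Chga. The hormone genes did not stand out. Ins1 had 9 menin-null and 4 wt tags, Ins2 22 and 17, and Gcg 8 and 6, beside 22 and 18, 13 and 8, and 19 and 15 tags in their inputs. Markers of fibroblasts summed to 28.6 RPM in menin-null and 32.7 RPM in wt PILECs, and those of endoderm and liver to 21.999 and 12.464 RPM, most of it from Foxa2 and Gata4. The sums were 47.8 and 44.9 RPM for pluripotent cells, 29.7 and 31.1 RPM for glia, 5.09 and 4.79 RPM for muscle and 10.2 and 9.43 RPM for blood and endothelium. Of the pluripotent sum Sox2 gave 30.0 and 26.8 RPM, Pou5f1 2.43 and 3.68 RPM and Nanog 1.58 and 2.88 RPM. In wt mESCs Pou5f1 and Nanog had 55.9 and 39.9 RPM. The muscle sum lay under its inputs of 5.41 menin-null and 6.26 wt RPM. In such bulk libraries fewer cells of a type and less mark per cell cannot be told apart.

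Of the 13075 regions tested outside the Hox loci, menin-null PILECs lost 141 (1.08%) and gained 31 (0.237%). Scaled by the tags within regions, the split was 100 lost and 49 gained, since losses with a ratio above -1.10 are then no longer called. The other 12903 regions differed by less than 2-fold, and the median of all regions was -0.11. The 141 lost regions lay at 127 loci more than 500 kb apart and the 31 gained regions at 25. Lost regions had a median of 52 menin-null and 135 wt tags, and gained regions 109 and 47. The largest loss was 4.94-fold and the largest gain 7.14-fold. In the Hox loci the median was -2.41, and no lost region elsewhere reached it, the lowest being -2.31. The lost regions closest to the 2-fold limit were those of T2, Pax3 and Xrcc5, the last with 136 menin-null and 290 wt tags, and just short of it were Dnmt3a, with 140 and 298, and Neil3, with 50 and 107. The region nearest to the limit among the gains was that of Zfp184, which had 142 and 75 tags and was not called.

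**Figure D1:**
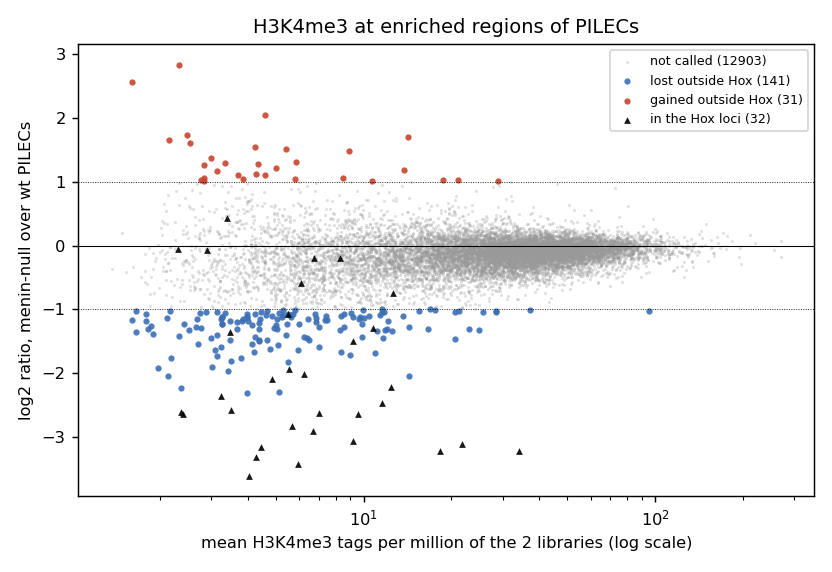
Each point is an enriched region of PILECs, plotted by its mean level in the menin-null and wt H3K4me3 libraries (RPM, log axis) and its log2 ratio, with dotted lines at 2-fold. The 141 lost (blue) and 31 gained (red) regions outside the Hox loci sit mostly at low levels, and most Hox regions (triangles) lie below them.

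Most called regions were weakly marked. Among regions with up to 200 tags in both libraries together, 77 of 751 were lost (10.3%) and 21 gained (2.80%). Among the 7397 regions with over 1000 tags, 4 were lost (0.0541%) and 1 gained. The 4 were Igf2bp1, with 1113 menin-null and 2399 wt tags, Mir17hg, Cenpv and 2610307P16Rik, and 0 of them were called with scaling by the tags within regions. The Igf2bp1 region (chr11:95864401-95869600) lay on the same chromosome as the HoxB genes (chr11:96055630-96229570). It was beyond the flanks of 20 kb, or 100 kb in an alternative, that were left out. At high levels a 2-fold change was therefore rare although it was easily detectable. The median wt level was 5.33 RPM per kb in lost regions and 15.4 RPM per kb in all regions outside the Hox loci. Lost regions were also less often at gene starts. A TSS lay within 1 kb of 87 of the 141 lost regions (61.7%), 18 of the 31 gained regions (58.1%) and 90.7% of all regions. Introns held 16.3% of lost regions against 1.66% of all regions, and 15.6% lay between genes against 5.98%. Among regions with up to 200 tags, 11.2% of those away from TSSs were lost and 9.59% of those near a TSS. Above 200 and up to 500 tags the shares were 3.67% and 2.19%, and above 500 and up to 1000 tags 0.772% and 0.388%. No test was made of these shares, because low counts reach 2-fold more easily.

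**Figure D2:**
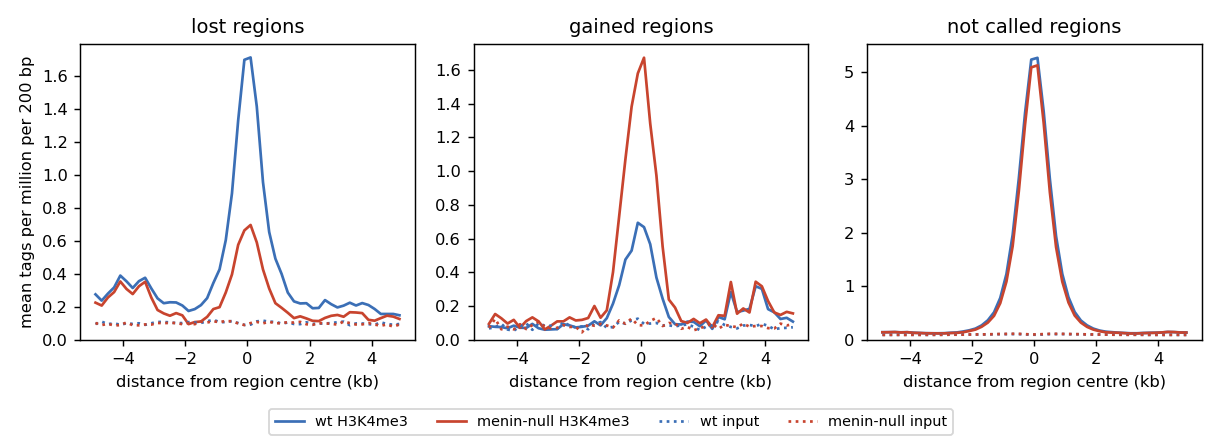
Mean RPM in 200-bp bins (y axis) by distance from the centre of the region (x axis, kb) for the 141 lost, 31 gained and 12903 other regions outside the Hox loci. The H3K4me3 libraries (solid) differ at the peak in the first and second panels and nearly coincide in the third, while the inputs (dotted) stay flat. The y axes differ.

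The inputs did not follow the calls. Summed within 50 kb of the lost regions the input log2 ratio was -0.02, and of the gained regions 0.00. Single inputs lay within 0.2 of 0 at 136 of 141 lost and 30 of 31 gained regions. The exceptions included the 3 lost Zic4 regions, at -0.25, -0.28 and -0.28, and the gained region near Gm10479, at -0.37. Divided by the input ratio within 50 kb, 2 of the 3 Zic4 regions were under 2-fold, and the third and the region near Gm10479 were still past it. In the parent mESCs, whose H3K4me3 libraries had 3517028 menin-null and 2432377 wt tags, the stretches lost in PILECs summed to 1773 RPM in menin-null and 1677 RPM in wt cells. That is a log2 ratio of 0.08 (0.02 to 0.14), beside 0.27 over all regions. Such sums weigh strong regions most. The median of the single lost regions was -0.17 in mESCs, with 89 of 141 below 0, beside a median of 0.23 over all regions. The stretches gained in PILECs had a pooled ratio of 0.51 (0.40 to 0.61) in mESCs, but a median of 0.19, with 12 of 31 below 0. Of the 141 lost regions 4 had a mESC interval wholly below 0 and 9 wholly above it, beside 216 and 3490 of all 13075 regions. Of the lost regions 26 had 3 wt mESC tags or fewer. Such low mESC counts leave a difference there undetectable at this depth.

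The greatest loss lay within 1 kb of a start of Cdon, which encodes a cell surface receptor that binds Hedgehog. It had 23 menin-null and 125 wt tags (-2.31, -3.07 to -1.71), with 17 and 16 tags in the inputs. The related gene Boc, a co-receptor of Hedgehog like Cdon, had an intronic region with 26 and 88 tags (-1.63). Zbtb20, a zinc finger repressor of brain and liver, had 14 and 74 tags (-2.24). Both Cdon and Zbtb20 have other starts, and the best marked ones had 527 and 710 tags (-0.34) and 336 and 463 tags (-0.37). A region in an intron of Trappc9 had 98 and 433 tags (-2.05, -2.39 to -1.74), and in mESCs 7 and 19 (-1.85, -3.47 to -0.66). Vcam1, a cell adhesion receptor, had 22 and 90 tags (-1.90). Mkrn3, an imprinted ring finger gene, had a region 2562 bp from its start with 17 and 64 tags (-1.77). Introns of Bbx and Tns3 held regions with 24 and 103 tags (-1.97) and 42 and 161 tags (-1.83). In mESCs the Tns3 region had 133 and 59 tags (0.63, 0.19 to 1.11). Emid1 had 25 and 91 tags (-1.74). Other regions among the 15 of greatest loss lay far from any annotated start. They included regions 44912 bp from Gm17444 (14 and 59 tags, -1.91) and 145620 bp from D230004N17Rik (27 and 103 tags, -1.81).

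A single locus on chromosome 16, that of miR-99a and let-7c-1, held 3 of the 15. Counts there were lower in menin-null PILECs at each of its 8 enriched regions, and 5 were called. Of all 13075 regions outside the Hox loci, 9464 had ratios below 0 and 141 (1.08%) were lost. The region 2.98 kb before the miR-99a gene, whose window is printed above, had 30 menin-null and 161 wt tags (-2.30, -2.95 to -1.77), and the inputs had 22 and 17. Along 2810055G20Rik, a transcript annotated up to just before the miR-99a gene, the regions 94.98, 175.8 and 197.8 kb before the miR-99a gene had 153 and 349 tags (-1.10), 251 and 665 tags (-1.32) and 30 and 111 tags (-1.77). A region 359.2 kb before it had 91 and 314 tags (-1.69). The region at the first start of 2810055G20Rik, with 294 and 591 tags (-0.92), and 2 regions beyond the miRNAs, with 56 and 109 tags (-0.86) and 27 and 41 tags (-0.50), were not called. The last of these holds the annotated Mir125b-2 (chr16:77646518-77646588). In mESCs the same 8 regions held 0 to 11 menin-null and 0 to 3 wt tags, so no level could be compared there.

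**Figure D3:**
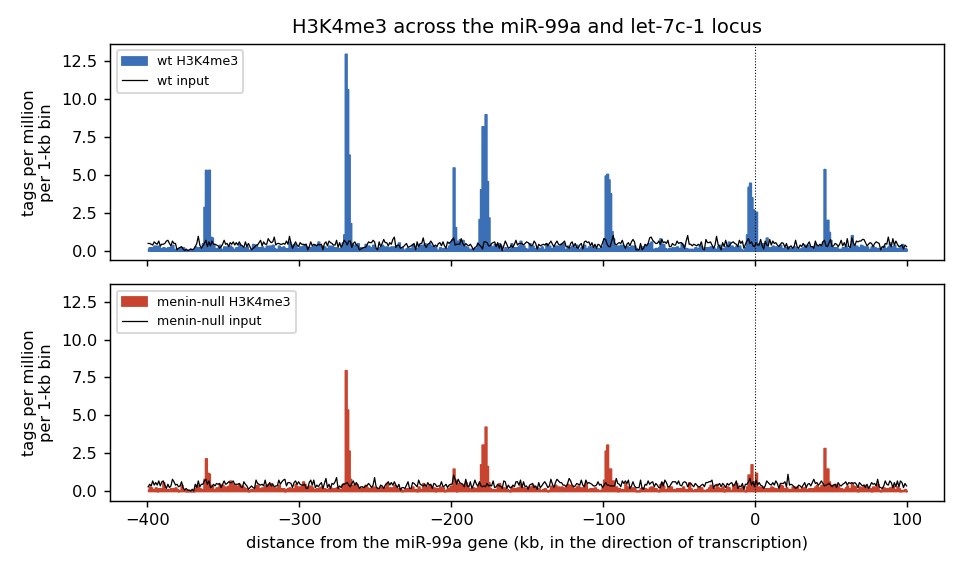
H3K4me3 RPM in 1-kb bins (filled) and input tags (line) in wt and menin-null PILECs by distance from the miR-99a gene (kb, dotted line). All peaks of the wt panel are lower in the menin-null panel, and the largest menin-null peak is at the first start of 2810055G20Rik, near -269.5 kb.

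In the related miRNA clusters the regions at the miRNAs were not called. Nor was the region holding Mir125b-2 on chromosome 16 (-0.50, -1.27 to 0.22). The regions at the related clusters were more strongly marked, at 137.6 and 93.9 wt RPM, beside 8.58 wt RPM before miR-99a. At such levels calls were rare, so the calls do not rank these loci. On chromosome 9, the region over Mir125b-1, next to Mir100 and Mirlet7a-2, had 1952 and 2584 tags (-0.32, -0.40 to -0.23). On chromosome 17, the region at Mirlet7e and Mir125a had 1637 and 1763 tags (-0.02, -0.12 to 0.08). The lost region near D230004N17Rik lay 202.1 kb from Mir100. The host of the miR-17 cluster, Mir17hg, had 332 and 715 tags (-1.02, -1.21 to -0.83), and Mir17 itself lies 493 bp beyond that region. Lin28b, which encodes an RNA-binding protein that blocks the maturation of let-7, had a lost region with 74 and 259 tags (-1.71, -2.11 to -1.34). Its most strongly marked start had 281 and 534 tags (-0.84), whereas Lin28a had 133 and 142 (-0.01). Igf2bp1, which encodes an mRNA-binding protein of fetal tissues, had 654 and 1305 promoter tags (-0.91), Igf2bp3 443 and 671 (-0.51) and Igf2bp2 782 and 965 (-0.22). In general, lost regions were not close to miRNA genes more often than other regions. Of 1004 miRNA hairpins found on mm9, 1 or more lay within 50 kb of 14 of 141 lost regions (9.93%) and of 10.8% of all regions.

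Of the 20348 promoters, taken as 1 kb on either side of the TSS, 160 were lost (0.786%) and 79 gained (0.388%), or 104 and 117 with scaling by the tags within regions. At 1.5-fold with the same adjusted p 647 were lower (3.18%) and 179 higher (0.88%). The median over all promoters was -0.07, or 0.03 under that scaling, so class medians between -0.10 and 0 turn sign with it. The lost promoters with the largest fold had few tags. Among the 12 lowest, 1810020O05Rik had 2 and 21 tags, and Olfr248 4 and 18, under its inputs of 9 and 20. Others were Gm16662, which shares its window with Hmgcll1, Gm6938, Gm15708, Fxyd4 and 3110007F17Rik. With input subtracted the ratios of Olfr248 and Fxyd4 were 0.086 and 0.086, the value that equal counts give at these depths. Olfr248 then had no tags left in either library, so the libraries could not be compared there. The best marked was Atf7ip, which encodes a cofactor of the methyltransferase SETDB1, with 46 and 206 tags (-2.05). Others of known function were Slc6a5, the neuronal glycine transporter, with 12 and 57 tags (-2.07), and Tnfaip6, a hyaluronan-binding protein induced in inflammation, with 10 and 52 (-2.18). Hmgcll1, an enzyme of ketone body synthesis, had 6 and 35 (-2.28), and Ticam2, a Toll-like receptor adaptor, 12 and 51 (-1.91). Cd200, a surface ligand of neurons and immune cells, was lost with 97 and 280 (-1.43). Jmjd1c, a putative histone demethylase, had a lost region at an internal start with 193 and 568 tags (-1.47), while its best marked start had 641 and 847 (-0.31).

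Gene classes were compared with all promoters by their counts and medians. Levels were not matched, and weakly marked regions were called more often. The median wt level was 4.53 RPM in fibroblast and matrix genes, 4.63 RPM in endoderm regulators, 7.99 RPM in non-Hox homeobox and Pax genes and 16.2 RPM in the Wnt list. Over all promoters it was 21.3 RPM. The Wnt pathway list had 5 lost promoters of 48 (10.4%, beside 0.786% of all promoters) and 0 gained, and 10 were lower at 1.5-fold (20.8%, beside 3.18%). Its median was -0.24, and 40 of the 48 ratios were below 0, beside 12800 of 20348 for all promoters. The lost members were the ligands Wnt8b, with 11 menin-null and 31 wt tags (-1.33, -2.55 to -0.38), Wnt5b, with 152 and 384 (-1.25, -1.53 to -0.98), and Wnt3, with 114 and 256 (-1.07, -1.41 to -0.76). The other 2 were Rspo1, a secreted agonist of Wnt signaling, with 40 and 95 tags (-1.14), and Sfrp4, a secreted inhibitor, with 54 and 127 (-1.13). Loss therefore fell on ligands, an agonist and an inhibitor, although Wnt8b lost its call in 4 of 9 alternatives and Wnt3 and Sfrp4 in 1 each. Wnt2b, Wnt2, Wnt16, Fzd9 and Lgr6 were lower at 1.5-fold. Among the receptors, all 10 Fzd promoters had ratios below 0, from -0.69 for Fzd9 (206 and 353 tags) to -0.03 for Fzd8 (1112 and 1207). Of the 10 intervals 6 were wholly below 0, beside 4741 of 20348 over all promoters. Fzd8 and Fzd7 (-0.07) turn above 0 with scaling by the tags within regions. Of the 19 ligands 12 had ratios below 0, a share like that of all promoters (12800 of 20348). Their intervals were wholly below 0 for 9 and wholly above for 1, beside 4741 and 1136 of all 20348 promoters. Above 0, Wnt7a had 468 and 423 tags (0.23, 0.04 to 0.43) and Wnt3a 58 and 41 (0.58, -0.01 to 1.20).

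**Figure D4:**
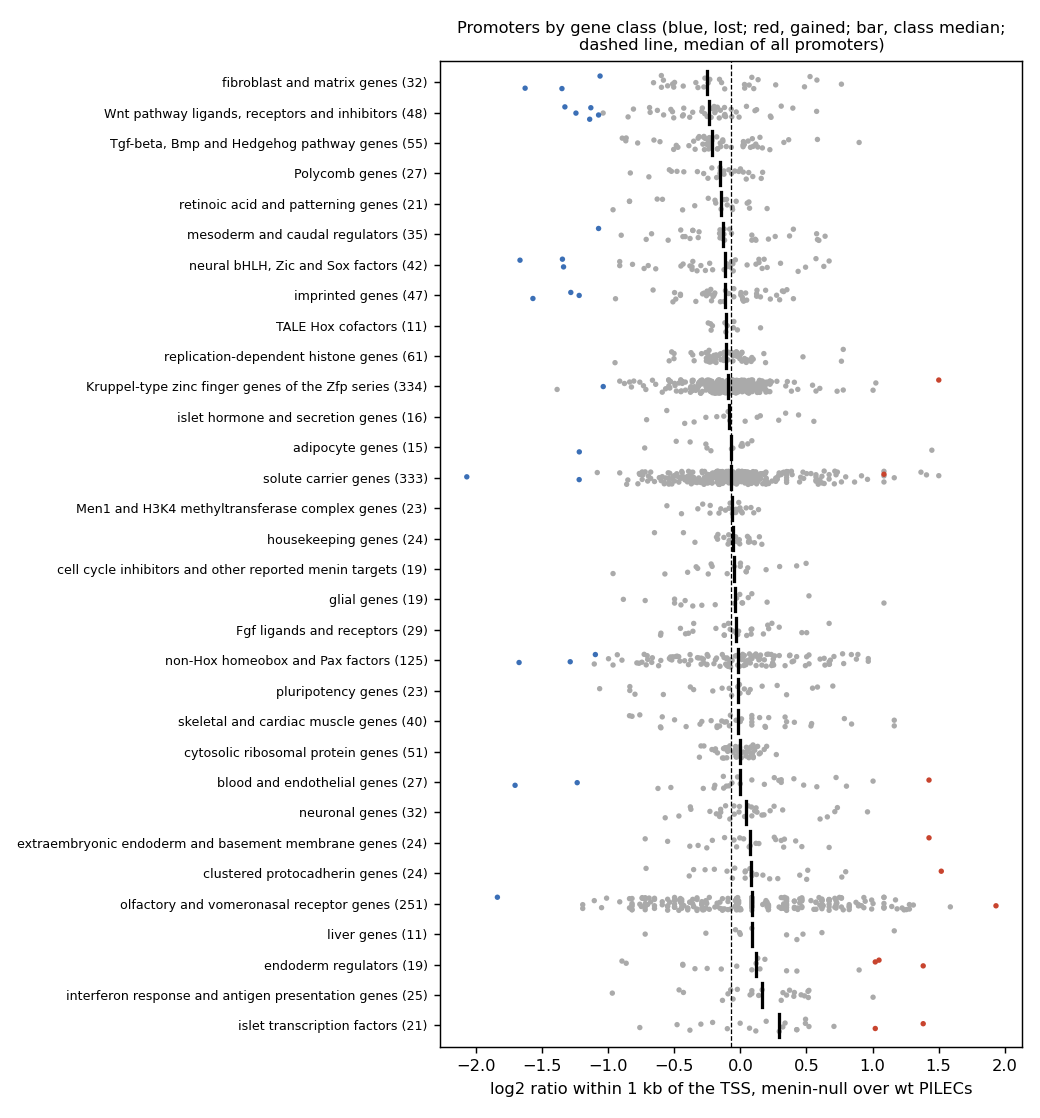
Log2 ratio of promoter H3K4me3 for the tested members of 32 gene classes (points, with a small vertical jitter), the class median (bar) and the median of all promoters, -0.07 (dashed). Medians run from -0.26 for fibroblast and matrix genes to 0.29 for islet transcription factors, and lost promoters are blue and gained ones red.

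Among 125 non-Hox homeobox and Pax genes changes went both ways, with 3 lost and 0 gained, and 14 lower and 9 higher at 1.5-fold. Over all promoters the shares were 0.786% lost, 0.388% gained, 3.18% lower and 0.88% higher. The median was -0.02. The lost ones were Barhl1, a factor of cerebellar and spinal neurons, with 22 and 77 tags (-1.68), Lbx1, a factor of dorsal spinal neurons and muscle precursors, with 58 and 152 (-1.29), and Pax8, a factor of thyroid, kidney and midbrain, with 21 and 49 (-1.10). Of these Pax8 lost its call in 2 of 9 alternatives. Pax3, which patterns the dorsal neural tube and its crest, had 155 and 315 promoter tags (-0.93). Its 3 enriched regions were lost, with 198 and 422, 37 and 116, and 46 and 115 tags, the first of them only without scaling by the tags within regions. The other lower members were Gbx1, Mixl1, Meox2, Tlx3, Barx1, Pax5, Prrx2, Pou4f2, Pou3f4 and Tshz2. In the list of neural bHLH, Zic and Sox factors 3 of 42 were lost (7.14%, beside the same 0.786%). They were Skor1, a corepressor of dorsal spinal neurons that works with Lbx1, with 39 and 134 tags (-1.67), Mab21l2, with 123 and 334 (-1.35), and Nhlh2, with 34 and 93 (-1.34). Its median was -0.11, and 6 were lower and 1, Sox14, higher at 1.5-fold. The regions lost near Zic4, of which only 1 of 3 stayed past 2-fold when divided by the local input, left out its best marked start, which had 423 and 540 tags (-0.27). Lhx9, a LIM homeobox gene, had a lost region 3406 bp from its start with 70 and 239 tags (-1.67), and 2 lost regions near Pou3f2 had 134 and 293 (-1.04) and 68 and 146 tags tags. Tal2, a bHLH gene of the midbrain, had 40 and 141 tags (-1.71).

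The 9 higher homeobox genes included Pax9, Lhx5, Hmx2, Vax1 and 4 Dlx genes. The Dlx genes and the genes of GABA neurons were grouped after the values were seen. Dlx1 had 381 menin-null and 218 wt tags (0.89, 0.65 to 1.14), Dlx2 473 and 313 (0.68), Dlx5 286 and 190 (0.67) and Dlx6 269 and 155 (0.88, 0.59 to 1.18). Dlx3 and Dlx4 did not differ detectably, with 231 and 241 (0.03, -0.24 to 0.29) and 199 and 199 tags (0.09, -0.20 to 0.38). Dlx1 and Dlx2, and Dlx5 and Dlx6, are neighboring pairs that act in forebrain neurons which use GABA. Regions gained at the antisense transcripts of both pairs had 66 and 34 tags at Dlx1as (1.02), and 111 and 54 (1.11) and 71 and 31 (1.26) at Dlx6os1. Of the neuronal list 4 of 32 promoters were higher at 1.5-fold, beside 0.88% of all promoters, and 0 lower, beside 3.18%, and the 4 included Gad1, Gad2 and Slc32a1. These encode both enzymes that make GABA and its vesicular transporter. Their tags were 586 and 394 (0.66, 0.47 to 0.85), 637 and 445 (0.60, 0.43 to 0.78), and 411 and 262 (0.73, 0.51 to 0.97). Abat, which degrades GABA, had 254 and 350 tags (-0.37). Of 7 GABA genes 5 had ratios above 0 and 2, Abat and Slc6a11, below. Slc17a6, the vesicular glutamate transporter of many projection neurons, had 206 and 284 tags (-0.37, -0.64 to -0.11). The other 2 vesicular glutamate transporters lay above 0. Slc17a7 had 47 and 46 tags (0.12, -0.50 to 0.74) and Slc17a8 16 and 14 (0.27, -0.85 to 1.42). The general neuronal markers Tubb3 and Elavl3 had ratios of -0.05 and 0.08. In mESCs the Dlx1 to Dlx6 promoters had ratios from -1.03 (Dlx5) to 0.59 (Dlx6), and their intervals all held 0. Gad1 had a mESC ratio of -0.72 (-1.42 to -0.03), Gad2 of 0.51 (-0.30 to 1.44) and Slc32a1 of -0.10 (-0.93 to 0.78).

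**Figure D5:**
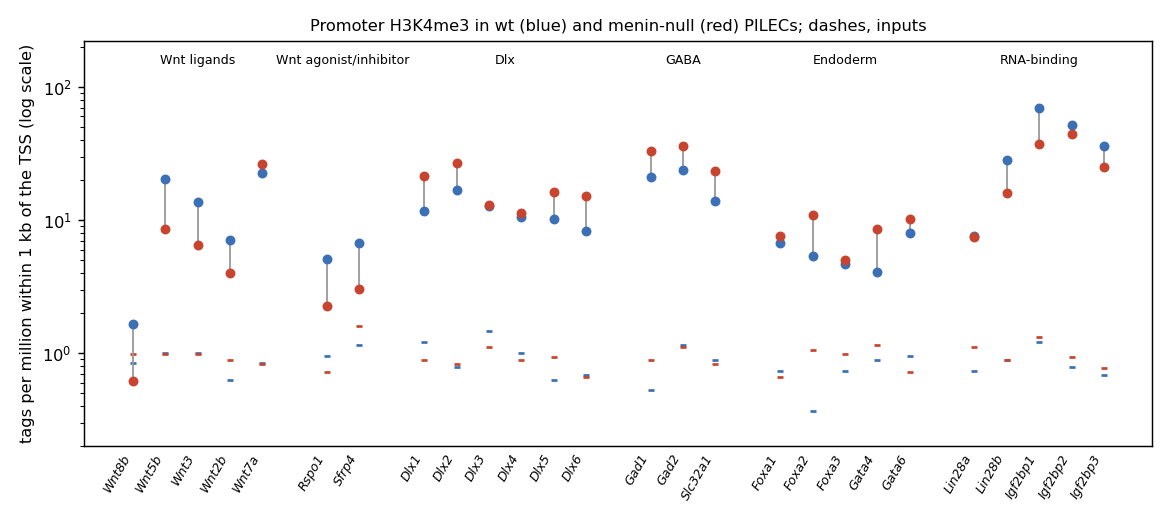
Promoter H3K4me3 (RPM, log axis) of selected genes in wt (blue points) and menin-null (red points) PILECs, with the inputs as dashes. Red lies below blue for 4 of the 5 Wnt ligands shown, Rspo1, Sfrp4, Lin28b and the Igf2bp genes. It lies above blue for Dlx1, Dlx2, Dlx5, Dlx6, Gad1, Gad2, Slc32a1, Foxa2 and Gata4. The genes shown are a selection. Of all 19 Wnt ligands 12 had ratios below 0, beside 12800 of 20348 promoters. Of 7 GABA genes 2 that are not shown, Abat and Slc6a11, had ratios below 0.

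Endoderm regulators had 3 gained promoters of 19, beside 0.388% of all promoters, and 0 lost, beside 0.786%. They included Foxa2, a pioneer factor of endoderm and of the floor plate, with 192 menin-null and 100 wt tags (1.02, 0.67 to 1.39), and Gata4, with 151 and 77 (1.05, 0.65 to 1.47). Shh, the Hedgehog ligand, had 229 and 130 (0.90). Foxa1 and Foxa3 had 135 and 126 tags (0.19) and 89 and 87 (0.12), and Gata6 179 and 149 (0.35, 0.03 to 0.67). Mixl1 was the member of the list that was lower at 1.5-fold, with 42 and 84 tags. A region at 9030622O22Rik, next to Foxa2, had 112 and 40 tags (1.55, 1.04 to 2.13). With the main settings, though not every alternative, islet transcription factors had the highest class median, 0.29 over 21 promoters, 14 of them at or above 0. The 2 gained included Foxa2, which both lists hold. Foxa2 kept its direction but lost its call in 6 of 9 alternatives, with a ratio of 0.36 at the 5 prime end of the gene, and Gata4 in 3 of 9. Without a call, Nkx2-2 had 111 and 82 tags (0.52), Nkx6-1 150 and 113 (0.49), Neurod1 98 and 136 (-0.38) and Mafa 101 and 150 (-0.48). The defining liver genes Alb, Afp and Ttr had 10 and 7, 7 and 11, and 7 and 13 tags, at or below the input.

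With the main settings, though not every alternative, fibroblast and matrix genes had the lowest class median, -0.26. Of 32 promoters 3 were lost (9.38%, beside 0.786% of all promoters), 0 gained and 5 lower at 1.5-fold (15.6%, beside 3.18%). These shares were not matched for level, and the class was weakly marked, with a median wt level of 4.53 RPM beside 21.3 RPM over all promoters. Lum, a matrix proteoglycan, had 6 menin-null and 22 wt tags, Vcam1 23 and 64, and Pdgfrl 22 and 50. Of these Lum lost its call in 2 of 9 alternatives and Pdgfrl in 3. Col1a2, which encodes a chain of type I collagen, had 78 and 126 (-0.60) and Col14a1 was also lower. Fn1 and Vim, the best marked, had 542 and 676 (-0.23) and 1025 and 1182 (-0.12), and the fibroblast surface marker Thy1 had 120 and 85 (0.58). Imprinted genes had 3 lost of 47 (6.38%, beside 0.786% of all promoters), 0 gained and a median of -0.11. Casd1 had 175 and 454 tags (-1.28, -1.55 to -1.03), Slc38a4, an amino acid transporter, 96 and 239 (-1.22), and Nap1l5 25 and 81 (-1.57). Nnat and Plagl1 were lower at 1.5-fold, with 223 and 457 (-0.95) and 379 and 637 tags (-0.66). In mESCs Plagl1 had 6 and 31 tags (-2.72) and Nnat 15 and 20 (-0.92). The mESC ratios of Casd1, Slc38a4 and Nap1l5 were 0.07, 0.22 and -0.36. Zdbf2, which is imprinted but was not on the list, was lost with 198 and 541 tags (-1.36). Meg3 had 683 and 751 tags (-0.05, -0.20 to 0.10), and Peg3 1133 and 1189 (0.02).

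In the Tgf-beta, Bmp and Hedgehog list 0 of 55 promoters were called at 2-fold, and the median was -0.22. At 1.5-fold 4 were lower (7.27%, beside 3.18% of all promoters) and 1, Shh, higher (1.82%, beside 0.88%). With 0.786% lost and 0.388% gained over all promoters, 0 calls at 2-fold is no result about a list of this size. Gli3, the main repressor of Hedgehog targets, had 450 and 820 tags (-0.78, -0.95 to -0.61), Smad2, which relays Tgf-beta signals, 352 and 589 (-0.65), and Gdf10 75 and 149 (-0.89), and Bmpr1b was the other lower one. Ptch1, the Hedgehog receptor, had 1462 and 1330 (0.22). Gli2 had a lost intronic region with 62 and 140 tags (-1.08). Polycomb genes had 0 of 27 called, again no result at this size, and 2 lower at 1.5-fold (7.41%, beside the same 3.18%). These were Bmi1, a subunit of PRC1, with 221 and 419 tags (-0.83, -1.08 to -0.60), and Kdm2b, which brings a form of PRC1 to CpG islands, with 422 and 725 (-0.69, -0.87 to -0.52). Ezh2 and Pcgf2 had ratios of 0.00 and 0.09. In the retinoic acid list of 21, Rarb and Crabp2 were lower at 1.5-fold (9.52%), with 212 and 349 (-0.63) and 116 and 186 tags (-0.59). So were Fgf18 and Fgf16 of 29 Fgf promoters (6.90%), both beside 3.18% of all promoters.

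The lists closest to menin had 0 calls at 2-fold and at 1.5-fold, which with shares of 0.786% lost and 3.18% lower over all promoters is no result about lists of this size. Among 23 promoters of Men1 and the H3K4 methyltransferase complexes the median was -0.06, with Mll1 at 0.10 (1086 and 1075 tags), Mll2 at -0.02 (1133 and 1224) and Psip1, which tethers menin and MLL to chromatin, lowest at -0.56 (389 and 608, -0.75 to -0.37). Among 19 cell cycle inhibitors and other reported menin targets it was -0.05, with 11 ratios below 0, 7 intervals wholly below 0 and 3 wholly above. Of all 20348 promoters 12800 had ratios below 0, 4741 intervals wholly below 0 and 1136 wholly above. The lowest of the 19 were Gbx2, a homeobox gene, with 13 and 28 tags (-0.96), Rasgrf1 (-0.57) and Igfbp2, with 613 and 859 (-0.40). Cdkn1b, encoding p27, had 1013 and 1044 tags (0.04, -0.08 to 0.17), Cdkn2c, encoding p18, 457 and 424 (0.19, 0.00 to 0.39), and Cdkn1a 774 and 582 (0.50, 0.34 to 0.66). The 11 TALE genes, whose products bind DNA with Hox proteins, had a median of -0.11, from Pbx3, with 703 and 884 tags (-0.24), to Pbx4, with 335 and 320 (0.15). An intronic region of Pbx3 was lost, with 103 and 229 tags (-1.06). The 51 ribosomal protein promoters had a median of -0.01 and the 24 housekeeping promoters -0.05, with Gusb alone lower at 1.5-fold. Replication-dependent histone genes had a median of -0.11 over 61 promoters. Of 334 promoters with Zfp symbols 1 was lost and 1 gained, with 10 lower and 2 higher at 1.5-fold, and of 333 solute carrier promoters 2 were lost and 1 gained. Over all promoters 0.388% were gained at 2-fold and 0.88% higher at 1.5-fold. The 23 pluripotency promoters had 0 calls at 2-fold and Lin28b lower at 1.5-fold, although the region at Nanog was lost, with 25 and 68 tags (-1.32) beside 141 and 102 in mESCs. Among 16 islet hormone and secretion genes Pcsk1, a prohormone convertase, was lower at 1.5-fold, with 75 and 131 tags (-0.71). The other classes stood as follows. Mesoderm and caudal regulators had 1 lost of 35, Wnt3, and adipocyte genes 1 of 15, Plin2. Blood and endothelial genes had 2 lost, Tal2 and Calcrl, and 1 gained, Srgn, of 27. Extraembryonic endoderm and clustered protocadherin genes had 1 gained each, of 24 and 24, beside 0.388% of all promoters. Glial, muscle, liver and interferon genes had 0 calls at 2-fold among 19, 40, 11 and 25, and olfactory and vomeronasal receptors 1 lost and 1 gained of 251.

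Gained regions were fewer than lost ones. The largest, 4506 bp from a start of the aldehyde oxidase gene Aox4, had 73 menin-null and 10 wt tags (2.84, 1.99 to 4.07), with 8 and 8 in the inputs. In mESCs it had 3 and 2. One at 8030474K03Rik had 49 and 8 tags (2.56). A region 17107 bp from Pla2g2c had 131 and 33 (2.04), and in mESCs 86 and 9. The region at 1700018B08Rik, with 68 and 21 tags (1.74), had 125 and 21 in mESCs. A region 2219 bp from Zfp628 was stronger, with 383 and 125 tags (1.69, 1.41 to 2.00). Cbx7, a subunit of PRC1, had a gained region with 233 and 88 tags (1.48), while its best marked promoter had 202 and 239 (-0.16). Pcdhb1, the first gene of its protocadherin cluster, had 142 and 52 (1.52). On chromosome 12, 6 of 480 regions were gained (1.25%), beside 0.237% of all regions outside the Hox loci. These 6 of the 31 gained regions started between positions 19181601 and 24485201. They lay near Gm10330, Gm5784, 3110053B16Rik, Gm10479 and 1700030C10Rik. There, 3 gained regions had 5 input tags or fewer in both genotypes together, while the median gained region had 12 menin-null and 11 wt input tags.

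The gained promoters differed in level from the lost ones. Their medians were 31 menin-null and 11 wt tags, with 18 and 18 in the inputs. The median wt count thus lay under that of the input and the median menin-null count above it. An enriched region overlapped 13 of the 79 gained promoters, 61 of the 160 lost ones and 13640 of all 20348. The 10 gained promoters with the largest fold included Wfdc6a, with 20 and 3 tags, Ptk6, with 26 and 5, Creb3l3, with 25 and 5, and Hsd17b6, also with 25 and 5. Gm14168, Csf2rb, Gm12264, Cdc42ep2 and Gm14408 had 18 to 22 menin-null and 3 to 5 wt tags, and 8030474K03Rik, the tenth, 59 and 15. CpG was sparser in gained promoters, with a median observed-to-expected ratio of 0.26 beside 0.47 in lost promoters and 0.55 in all promoters. Among promoters in an enriched region it was 0.556 in gained, 0.552 in lost and 0.645 in all.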

How the data were processed

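For PILECs the ChIP-Seq libraries of H3K4me3 and both input libraries were analysed, and for mESCs the H3K4me3 libraries alone. The authors aligned short reads to mm9, kept uniquely placed tags and deposited the tag positions without normalization. No use was made of the score in the deposited tables. Tags with over 2 listed mismatches, 1.08% to 1.81% of a library, were kept.

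Tags were counted in Python 3.11.15 (pandas 2.3.3, numpy 2.4.6), tests used scipy 1.17.1, and matplotlib 3.10.9 drew the plots. Enriched regions were runs of 200-bp windows with 13 or more tags of both genotypes (Poisson p of 1e-05 or less over 2558509480 bp), joined over 400 bp or less, at least 1000 bp long and at least 2 times the input density. Hox loci were taken with 20 kb on either side. Promoters with 20 tags or more in both libraries together were tested at the TSS with the most tags. P-values were adjusted by the Benjamini-Hochberg method over all regions or all promoters. The inputs held 18120807 menin-null and 19016697 wt tags. Intervals cover counting error only. Of 1005 RefSeq miRNA hairpins 1004 matched mm9 exactly, and Mir125b-2 was placed from the annotation. The calls were tested on simulated data.

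The rule named Men1, the 15 lost and 10 gained regions and the 12 lost and 10 gained promoters with the largest fold, and the 5 lowest, 3 highest and 3 best marked members of a class, from which examples were taken. The Dlx and GABA genes, the miRNA loci, Lin28, Igf2bp and other genes outside the rule were chosen after their values were seen. The lists and the regions were chosen with earlier results of these data known. Alternatives changed scaling, repeated tags, mismatches, tag position, use of input, fold, tags added, Hox flank, region length and threshold, and the promoter window, start and minimum. Some genes that the rule named are not reported here.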

Additional observations from a re-analysis of the deposited data

How the results depend on the processing

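No paired analysis was possible because each genotype had 1 PILEC library, and no replicate could be left out. The counts of 141 lost and 31 gained regions and 160 lost and 79 gained promoters depended on the threshold, the minimum of tags and the use of input. At 1.5-fold they were 657, 124, 647 and 179, and at 3-fold 22, 7, 20 and 40. With input subtracted they were 213, 59, 487 and 214. Scaling by the tags within regions gave 49 gained regions and 104 lost promoters and moved the median of all promoters to 0.03. Regions of 600 bp or more gave 294 lost and 73 gained, and windows with 2 times the tags 51 and 10. By fold alone 305 promoters were lost and 364 gained. Keeping 1 tag per position left 52 gained promoters. Of 2 alternatives chosen after seeing the data, promoters within an enriched region, with p adjusted over these alone, gave 62 lost and 13 gained, and promoters with 100 tags or more 94 and 16. Of the alternative counts, 33 stayed within 1.5 times and 25 did not. The 25 named regions kept their direction and call in all 175 recomputed values and the named promoters in 412, while 54 promoter values kept their direction without a call. With input subtracted no tags of Olfr248 were left in either library. The ratios of Olfr248 and Fxyd4 went from loss to 0.086 and 0.086 (log2), the value that equal counts give at these depths. The cause was not tested. Low tag counts limit the weak regions and the mESC values.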
